A study of Mus musculus with 2 samples.

Results

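The genes described here write, erase and read histone acetylation, methylate and demethylate DNA, or move nucleosomes, and their own gene bodies were examined for H3K36me2, dimethylation at lysine 36 of histone H3. The list held 41 named genes, all found among the 19190 protein-coding genes of at least 2 kb on chromosomes 1 to 19 and X in the RefSeq annotation of GRCm38.p6 (mm10). The samples were regulatory T (Treg) cells, a CD4 T cell lineage defined by Foxp3 that holds back immune responses, from the spleens of C57BL/6 mice. One library came from mice with Nsd2 conditionally knocked out in Treg cells (KO) and 1 from wild-type mice (WT). Neither the Cre driver, the antibody, the number of mice pooled nor their age was stated in the labels. With 1 library per genotype no difference has a replicate check, no p-value is given, and each interval covers counting error only.

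NSD2 is a methyltransferase that places H3K36me2, a mark laid down over active gene bodies and between genes. Histone acetyltransferases open chromatin and are opposed by the zinc-dependent deacetylases (HDACs) and the NAD-dependent sirtuins. DNA methyltransferases silence sequence at CpG sites and TET enzymes oxidise the methyl group, while SWI/SNF and CHD complexes use ATP to slide or evict nucleosomes. DNMT3A is known to bind H3K36me2 through its PWWP domain, and in Treg cells TET enzymes keep the Foxp3 enhancer demethylated and several HDACs act on the FOXP3 protein.

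The data were HOMER regions, stretches where tags passed a threshold, called by the authors in each library alone. The KO library had 14789700 tags and 39645 regions on these chromosomes over 31.4 Mb, and the WT library 17158154 tags and 54422 regions over 42.3 Mb. The threshold of 12 KO tags and 13 WT tags came to 8.11 and 7.58 tags per 10000000, so it was stricter in the shallower KO library. The immunoprecipitation efficiency given by the caller was 5.89% in KO and 7.17% in WT, and its part in the differences was not tested. Of 16 Treg and T cell marker genes, 14 held a region in both libraries, with 29.1% of their pooled bodies covered in KO cells and 27.5% in WT cells, and Foxp3 held 4652 bp in KO and 2743 bp in WT. Ctla4 and Cd28 held none. A region in either library lay in 7 of 10 B cell markers, 5 of 9 myeloid, 6 of 8 NK and CD8 and 1 of 3 erythroid markers. Pooled cover was 1.19% in KO and 2.06% in WT for the B cell list, 2.29% and 2.09% for the myeloid list, 0.79% and 5.15% for the NK and CD8 list, and 0 and 1.76% for the erythroid list. In the NK and CD8 list 5 of the 6 genes with a region had it only in WT, against 22.8% of coding genes with a region. These markers were thus lower in KO along with the genes described here, on 1 KO region and 7 WT regions. More cover in KO was found in 11 of the 14 Treg and T cell markers with a region and in 3 of the 7 B cell markers. The B cell markers Ms4a1 and Cr2 were at 0 in both libraries, and so were Cebpa, Lyz2, Adgre1 and Siglech of the myeloid list, Cd8a and Ncr1, and the erythroid marker Alas2. Others were well covered, Cd79b to 48.8% in KO and 39.8% in WT, Spib to 26.9% and 12.5%, and Cd79a to 22.9% and 14.7%. Spi1 was covered to 15.2% and 8.9%, and Gzmb to 14.3% in both. Among the 7 B cell markers with a region the median share was 4.46% in KO and 9.16% in WT. For coding genes with a region it was 2.20% and 3.21%. The part of cell mixture in the differences below was not tested, and the Nsd2 deletion cannot be checked from regions of a histone mark.

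The 41 gene bodies were marked more than coding genes at large in both genotypes, and less of them was inside regions in KO cells. They carried 138257 bp of regions in KO cells, 3.55% of their pooled length, against 205707 bp or 5.29% in WT cells. KO cover was thus 67.2% of WT cover, where all coding genes had 1.89% in KO and 2.53% in WT, a ratio of 74.8%. In normalised tags, which HOMER scales to 10000000 per library, the members' regions summed to 2351 in KO and 3243 in WT, 72.5%, at 17.01 and 15.8 tags per kb of region.

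A region lay in 37 of the 41 genes (90.2%), against 58.5% of all coding genes. It was present in both libraries in 30 genes. It was present only in KO in 2 (5.41% of the 37, against 15.5% of coding genes with a region) and only in WT in 5 (13.5%, against 22.8%), so both shares lay below the background. Hdac3 and Hdac8, catalytic class I deacetylases, Sirt1, the best known sirtuin, and Kat7, the HBO1 acetyltransferase, held none in either library. Of the 37 genes, 27 (73.0%) had fewer covered base pairs in KO, against a background of 59.7% of 11217 coding genes with a region, and 10 (27.03%) had more, against 36.7%. By a rule of size, at least 2-fold with 1000 bp or more in the larger library, 10 of 29 members (34.5%) were lower in KO, against 36.9% of 6688 coding genes, and 2 (6.90%) higher, against 14.8%. The share of lower genes was above the background and that of 2-fold lower genes near it. When WT regions of 500 bp were held to the KO threshold, the counts became 17 lower and 18 higher. No KO region was removed in that setting, though some KO regions of 500 bp lay below the same level, so it favoured KO. Of the 37 differences, 14 turned direction under at least 1 of 7 alternative settings, those of Brd2, Sirt2, Sirt7, Sirt6, Dnmt3a, Dnmt1, Chd3, Tet2, Tet3, Hdac1, Hdac2, Kat2a, Kat6b and Smarca4.

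**Figure D1:**
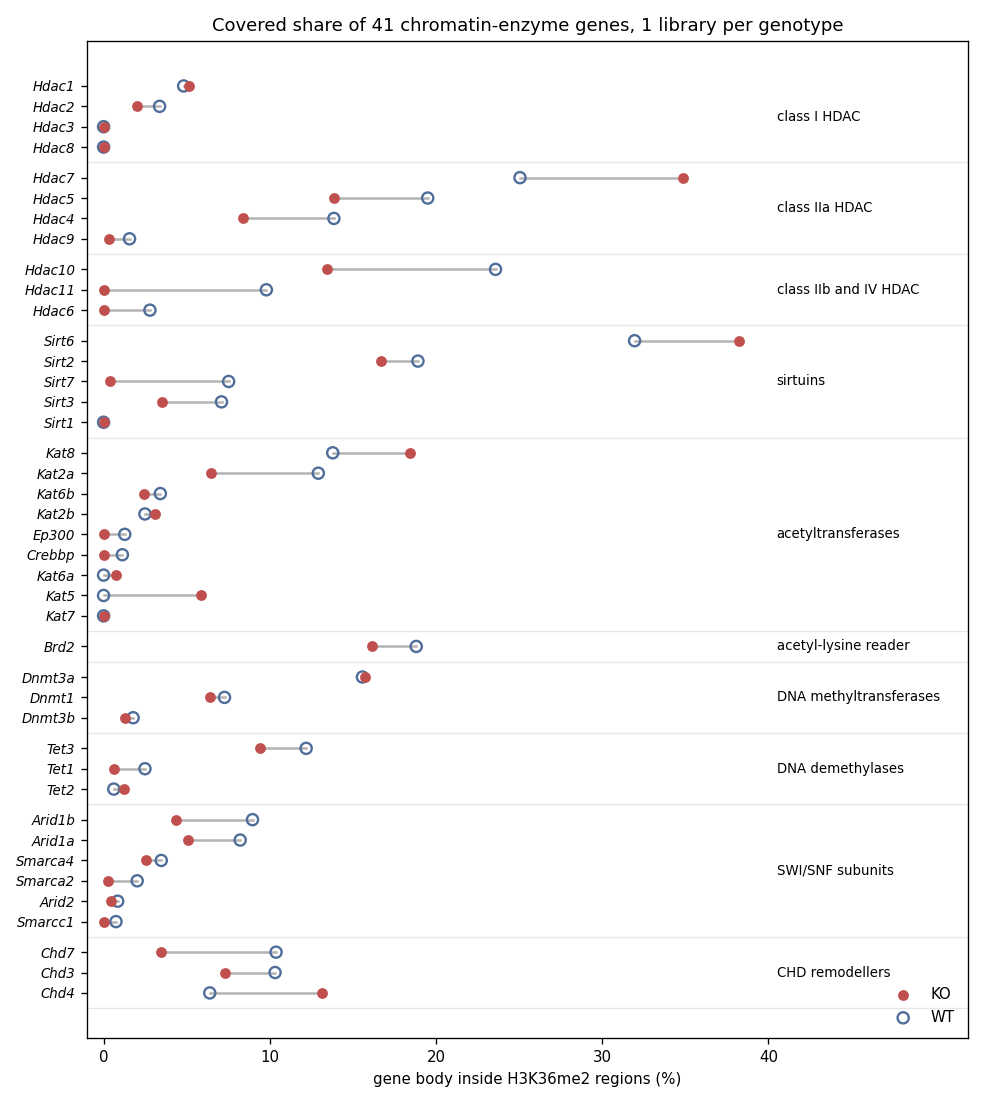
Percentage of each gene body inside H3K36me2 regions in KO cells (filled red) and WT cells (open blue), 1 library each, grouped by role. KO lies left of WT for 27 genes and right of it for 10, farthest for Hdac7, at 34.9% in KO and 25.05% in WT.

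Regions at gene starts were frequent among these genes. A 300-base window around each annotated start, 250 bases before to 50 after, was available for 34 members from RefSeq (GRCm38.p6), 52 windows in all. At least 1 window was touched by a region in 11 of the 34 genes in KO, against 12.5% of 15243 coding genes, and in 9 in WT, against 12.7%. In 6 genes it was touched in both libraries, among them Hdac2, Dnmt1, Brd2 and Hdac7, each with at least 1 window wholly inside regions in both. Chd4, Tet3, Sirt7, Sirt2 and Dnmt3a were touched only in KO, and Ep300, Smarcc1 and Sirt6 only in WT. Over all 15243 coding genes, 1908 were touched in KO, 1936 in WT and 983 in both, so touch in 1 library only was common at large. The WT regions at Ep300 and Smarcc1 were 500 bp long with 7.58 and 6.70 normalised tags, close to the threshold. The KO region at Chd4 had 70.0 over 4714 bp. Per kb of region the tags were alike, 14.8 for Chd4 in KO. Over all WT regions of Ep300 and of Smarcc1 they were 15.5 and 15.2. Members' windows held a median of 22 CpG, against 15 for all coding genes. The part of CpG content in the higher share of touched genes was not tested. Some of these windows follow, since the libraries differed at the first 4 and matched at the last, read 5′ to 3′ along the gene with every CG in capitals.
Chd4 (chr6:125095913-125096212, plus strand, KO only): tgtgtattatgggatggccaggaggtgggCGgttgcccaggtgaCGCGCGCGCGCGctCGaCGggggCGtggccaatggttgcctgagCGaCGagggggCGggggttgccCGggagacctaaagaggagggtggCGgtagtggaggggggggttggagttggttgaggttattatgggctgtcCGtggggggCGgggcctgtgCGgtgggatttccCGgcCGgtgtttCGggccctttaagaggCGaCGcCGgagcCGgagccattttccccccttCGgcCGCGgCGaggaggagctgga
Tet3 (chr6:83441629-83441928, minus strand, KO only): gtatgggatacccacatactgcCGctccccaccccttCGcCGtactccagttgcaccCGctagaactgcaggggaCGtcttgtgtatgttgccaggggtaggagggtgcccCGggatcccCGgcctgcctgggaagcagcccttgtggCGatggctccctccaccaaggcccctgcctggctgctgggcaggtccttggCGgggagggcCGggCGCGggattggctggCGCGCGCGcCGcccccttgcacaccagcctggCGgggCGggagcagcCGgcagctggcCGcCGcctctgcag
Ep300 (chr15:81585964-81586263, plus strand, WT only): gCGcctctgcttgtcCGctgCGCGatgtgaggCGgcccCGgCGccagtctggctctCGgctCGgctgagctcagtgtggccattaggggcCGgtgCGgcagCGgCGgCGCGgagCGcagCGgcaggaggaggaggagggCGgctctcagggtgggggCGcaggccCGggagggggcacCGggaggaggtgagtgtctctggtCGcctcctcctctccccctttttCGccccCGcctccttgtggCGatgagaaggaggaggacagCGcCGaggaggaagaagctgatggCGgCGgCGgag
Smarcc1 (chr9:110131774-110132073, plus strand, WT only): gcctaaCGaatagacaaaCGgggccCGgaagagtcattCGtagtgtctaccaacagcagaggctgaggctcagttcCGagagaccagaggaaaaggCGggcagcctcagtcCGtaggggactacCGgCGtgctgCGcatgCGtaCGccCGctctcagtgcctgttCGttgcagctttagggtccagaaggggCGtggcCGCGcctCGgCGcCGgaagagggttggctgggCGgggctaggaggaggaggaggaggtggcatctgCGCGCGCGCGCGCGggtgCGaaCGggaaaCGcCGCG
Hdac2 (chr10:36974294-36974593, plus strand, both): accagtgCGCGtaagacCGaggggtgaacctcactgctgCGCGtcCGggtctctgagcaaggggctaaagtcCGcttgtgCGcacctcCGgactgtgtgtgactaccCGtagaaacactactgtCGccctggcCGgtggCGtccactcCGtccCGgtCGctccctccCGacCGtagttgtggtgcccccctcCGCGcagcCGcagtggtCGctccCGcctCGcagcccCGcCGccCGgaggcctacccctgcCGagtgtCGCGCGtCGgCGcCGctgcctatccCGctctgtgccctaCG
These windows held 29, 22, 30, 33 and 36 CG. The ETS-type hexamer CCGGAA, searched on both strands and itself containing a CG, was found 2 times in the Smarcc1 window and not in the other 4. It occurred in 20.2% of all coding-gene windows and in 12 of the 52 members' windows (23.1%).

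Among the deacetylases, the class IIa enzymes, signal-regulated corepressors that shuttle between nucleus and cytoplasm, carried most of the mark. Their bodies held 48262 bp in KO (3.95%) and 70268 bp in WT (5.75%). Hdac4 (chromosome 1, 91928779 to 92195702) held more covered base pairs than any other member, 22426 bp in 28 KO regions and 36990 bp in 38 WT regions. Those regions held 384 normalised tags in KO (exact Poisson interval 354 to 418) and 585 in WT (549.5 to 622). The longest WT region, of 5911 bp, lay 113379 to 119290 bp downstream of the annotated start, and KO regions covered 799 bp of it. In all 17 KO regions of Hdac4 had a base in a WT region, and 17 WT regions a base in a KO region.

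Hdac7, the class IIa enzyme best known from thymocytes, differed in the other direction. Its 51842 bp body (chromosome 15, 97792661 to 97844502) was covered to 34.9% in KO, 18074 bp in 14 regions, and to 25.05% in WT, 12989 bp in 11 regions. All 11 WT regions had a base in a KO region, and 10406 bp lay in both. From 13349 to 23960 bp downstream of the outermost start, 3 KO regions of 2262, 2807 and 3614 bp overlapped 4 WT regions, each of them shorter than the KO region it met. Another 4 KO regions of the gene, of 500 to 892 bp, had no base in a WT region. Hdac5 held 4783 bp in KO and 6714 bp in WT, 13.9% and 19.5% of its body. Hdac9, the longest member at 869516 bp, held 5 regions of 2979 bp in KO and 23 regions of 13575 bp in WT. Of those 23 regions 16 were 500 bp long, and 2 had a base in a KO region.

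The other HDAC genes held fewer covered base pairs than any class IIa gene in either library. Hdac1 and Hdac2 encode the paired catalytic subunits of the NuRD and Sin3 complexes. Hdac1 held 1364 bp in KO and 1279 bp in WT, with no base in both, and Hdac2 held 562 bp in KO and 930 bp in WT. Hdac2 had its main region over the start printed above, 926 bp with 19.9 normalised tags in KO and 628 bp with 14.6 in WT. The class IIb and IV genes pooled to 725 bp in KO and 3538 bp in WT, 1.75% and 8.56% of their bodies, the WT share being above that of class IIa. Hdac11, the only class IV enzyme, held none in KO and 1765 bp in 3 regions in WT. Hdac6, a tubulin deacetylase, held none in KO and 500 bp in WT. Hdac10, known as a polyamine deacetylase, was covered to 13.4% in KO and 23.6% in WT.

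Of the sirtuins, Sirt6, a chromatin-bound deacetylase, had the highest covered share of any member, 38.2% in KO and 31.95% in WT. Its 6006 bp body (chromosome 10, 81621787 to 81627792) held 1 KO region of 2297 bp, from 3005 to 5302 bp past the outermost start, and 2 WT regions on either side of it. The WT region of 1604 bp lay 201 to 1805 bp past the start, and no base was shared, so the covered positions differed between the libraries. Sirt2, a mostly cytoplasmic tubulin deacetylase, held 3659 bp in KO and 4145 bp in WT, with 2577 bp in both. Sirt3, the mitochondrial deacetylase, held 657 bp in KO and 1323 bp in WT. The nucleolar Sirt7 held 27 bp in KO and 500 bp in WT, but its KO region of 1460 bp lay over the start and mostly upstream of the body.

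The acetyltransferase genes were close to the level of all coding genes, at 1.84% in KO and 2.18% in WT. Ep300 and Crebbp, the paralogous coactivators p300 and CBP, held no region in KO and 839 bp and 1500 bp in WT, in 2 and 3 regions of 500 bp each. Both genes were at 0 in both libraries when WT regions of 500 bp were held to the KO threshold, so the 2-fold call of Crebbp was lost there. Kat6b, a MYST-family enzyme, held 4209 bp in KO and 5918 bp in WT, with 1 region just past the start in both. Its paralog Kat6a held 627 bp in KO and none in WT, and Kat5, encoding TIP60, 500 bp in KO and none in WT. Kat8, the H4K16 acetyltransferase MOF, was covered to 18.5% in KO and 13.8% in WT, with 1 region in the 3′ part called at the same place in both and a second, of 500 bp, called in KO only. Kat2b, encoding PCAF, held 3275 bp in KO and 2635 bp in WT, and Kat2a, encoding GCN5, 500 bp in KO and 1000 bp in WT. The group thus held 4 genes with more and 4 with less cover in KO.

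Brd2, a BET-family reader of acetylated lysines in the MHC region (chromosome 17, 34112019 to 34122814), had 1744 bp covered in KO and 2031 bp in WT. Its main region spanned 2 annotated starts, with 46.7 normalised tags over 1928 bp in KO and 25.6 over 1686 bp in WT. The ratio of 1.82 had an exact 95% interval of 1.23 to 2.72, and was the highest of all 18 regions matched between the libraries in these genes. The covered base pairs were lower in KO through a WT region of 500 bp with no KO counterpart, and Brd2 was higher in KO under 6 of the 7 alternatives. H2-DMa overlaps 3122 bp of the Brd2 body, which held all 1744 KO base pairs and 1531 WT base pairs, so the regions cannot be assigned to Brd2 alone.

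The DNA methyltransferase genes kept nearly equal cover, 10.6% in KO and 10.8% in WT. Dnmt3a (chromosome 12, 3801559 to 3914443), a de novo enzyme, held 17787 bp in 23 KO regions and 17583 bp in 17 WT regions, with 7202 bp in both. KO regions held 307 normalised tags (279 to 337) and WT regions 272 (248 to 298). The longest WT region, of 4253 bp, lay from 25662 to 29915 bp past the outermost start, where KO had regions of 500 and 1835 bp, both inside it. The third listed start, which lies inside the gene, had a KO region of 728 bp ending 210 bp upstream of it, and the nearest WT region was 2077 bp away. The near equal totals came from more and shorter regions in KO. Dnmt1, the maintenance enzyme, held 3384 bp in KO and 3833 bp in WT, with 1 region over its inner starts in both, and Dnmt3b, the other de novo enzyme, 500 bp and 681 bp.

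Of the TET genes, Tet3 held 8925 bp in KO and 11561 bp in WT. From 23746 to 31810 bp past the annotated start, WT regions of 3467 and 3491 bp overlapped 4 shorter KO regions, while the start itself lay in a KO region only. Tet1 held 500 bp in KO and 2065 bp in WT, and no base was shared. Tet2, which is often mutated in T cell lymphoma in humans, held 1000 bp in KO and 500 bp in WT, all in regions of 500 bp.

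**Figure D2:**
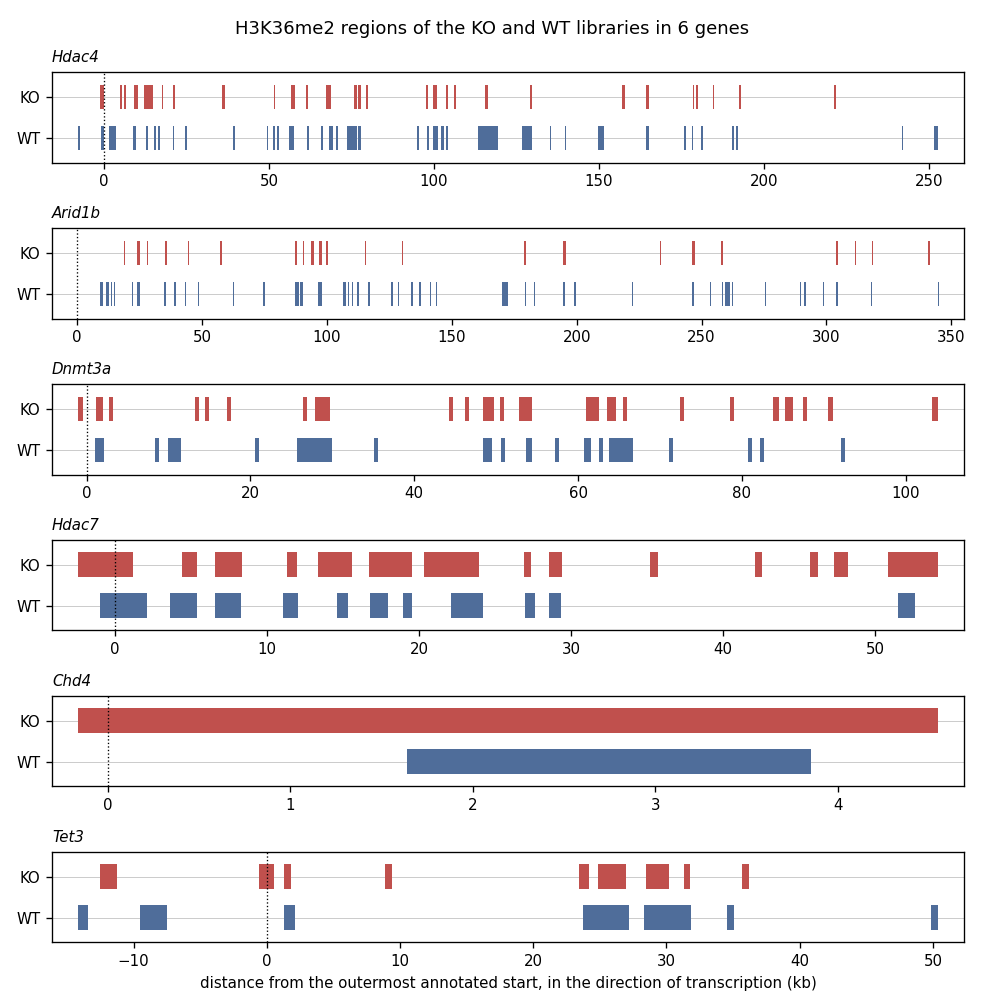
Regions of the KO library (red, upper row) and the WT library (blue, lower row) in 6 genes, by distance in kb from the outermost start in the RefSeq promoter table (dotted line), which lies inside the gene body for Tet3, Hdac4, Dnmt3a and Arid1b. Hdac4 and Arid1b have fewer KO regions, 28 and 22 against 38 and 44 in WT, Hdac7 has wider ones, and in Chd4 the KO region of 4714 bp contains the WT region of 2211 bp.

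The SWI/SNF subunit genes had the fewest base pairs left relative to WT among groups of more than 3 genes, 22659 bp in KO (2.47%) and 46427 bp in WT (5.05%), a ratio of 48.8%. All 6 were lower in KO, against a background of 59.7% of coding genes with a region and 72.4% of those of 100 kb and over. Arid1a and Arid1b kept that direction under all 7 alternative settings, while the difference of Smarca4 turned under 1 and those of Arid2, Smarca2 and Smarcc1 came to 0 under at least 1. Arid1b (chromosome 17, 4994297 to 5347656), a DNA-binding subunit of the BAF complex, made most of the difference, with 15440 bp in 22 KO regions and 31664 bp in 44 WT regions. Of these regions 11 in each library had a base in the other, and 27 of the 44 WT regions were 500 bp long. Its normalised tags were 261 in KO (236 to 288) and 500 in WT (467 to 534). Its paralog Arid1a held 3952 bp in KO and 6392 bp in WT, and Arid2, of the PBAF complex, 500 bp and 1000 bp. The ATPase gene Smarca2 held 500 bp in KO and 3505 bp in WT, without a shared base, and the other ATPase gene, Smarca4, 2267 bp and 3059 bp. Smarcc1, a core subunit, held none in KO and 807 bp in WT, including the region over the start printed above.

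The CHD genes went both ways. Chd7 (chromosome 4, 8690402 to 8868449), the gene mutated in human CHARGE syndrome, held 6173 bp in 10 KO regions and 18478 bp in 22 WT regions, 3.47% and 10.4% of its body. Its normalised tags were 107 in KO (90.8 to 125) and 296 in WT (271 to 323). The 6 WT regions between 8709183 and 8734372, of 500 to 1790 bp, had no base in a KO region, while the site at 8837157 in KO and 8837219 in WT was called in both with 23.3 and 23.6 normalised tags. Chd4 (chromosome 6, 125095980 to 125130591), the NuRD ATPase, held 1 region in each library. It was 4714 bp long in KO and began 164 bp upstream of the first start, and 2211 bp long in WT, beginning 1642 bp downstream. Cover was 13.2% in KO and 6.39% in WT, and Chd4 was the 1 member with 2000 bp or more that was at least 2-fold higher in KO. Chd3, the other NuRD ATPase, held 1909 bp in KO and 2706 bp in WT, with 1735 bp in both.

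**Figure D3:**
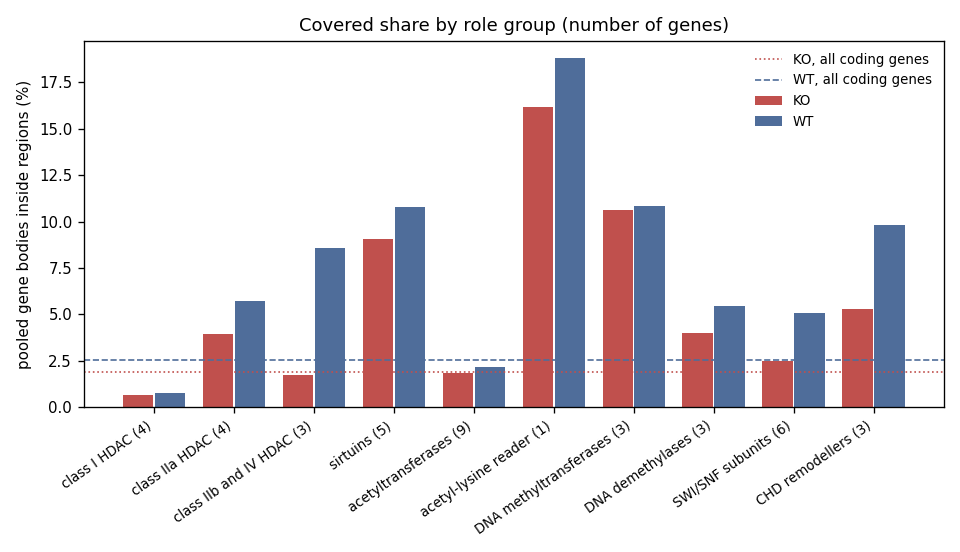
Percentage of pooled gene bodies inside regions in KO cells (red) and WT cells (blue) for the 10 role groups, number of genes in brackets, with lines for all coding genes (KO 1.89%, WT 2.53%). Each group's KO bar is lower than its WT bar, most alike for DNA methyltransferases at 10.6% and 10.8%.

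Cover was uneven among the members. Hdac4, Arid1b, Dnmt3a, Hdac7 and Chd7 held 57.8% of the members' covered base pairs in KO and 57.2% in WT. Without them the other 36 genes had 1.99% in KO and 3.01% in WT, a ratio of 66.3%. Regions of 500 bp, the smallest the caller makes, were 48.0% of the members' 175 KO regions and 51.6% of their 252 WT regions. Over all regions of each library the shares were 54.3% in KO and 52.7% in WT. The ratio of KO to WT cover was 54.8% in the 12 members of 100 kb and over, against 64.4% for all coding genes of that length. It was 95.5% against 76.1% from 30 to under 100 kb, and 77.3% against 91.4% under 30 kb. Of the 11 long members with a region, 9 were lower in KO, a background of 72.4% among long coding genes, and so a majority of long coding genes at large was lower too.

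Pooled by distance from the start, cover was highest near the start and fell downstream, and the ratio of KO to WT cover was lowest in the farthest class. The 5 distance classes held 34, 34, 25, 18 and 10 genes, so gene length and distance were not separated. In the 34 members with an annotated start, regions covered 9.53% of the first 5 kb in KO and 11.8% in WT. From 5 to 20 kb the shares were 6.67% and 7.68%, from 20 to 50 kb 5.34% and 6.01%, and from 50 to 100 kb 3.87% and 4.71%. Beyond 100 kb, in 10 genes, they were 1.19% in KO and 3.61% in WT. There KO cover was 33.1% of WT cover, against 60.6% for all coding genes. In each of the 4 nearer classes the members' ratio lay between 81.05% and 88.8%, while it ran down from 94.3% to 70.1% in all coding genes. The flat ratio of the members rested on Hdac4, Arid1b, Dnmt3a and Hdac7, as Chd7, the other of the 5 most covered genes, had no annotated start. Without them the ratio was 97.6%, 71.4%, 74.9% and 63.0% in the 4 nearer classes, and 12.7% in the far class, with 0.18% in KO and 1.46% in WT. Hdac9 alone held most of the 2000 KO and 15767 WT base pairs of that far class.

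**Figure D4:**
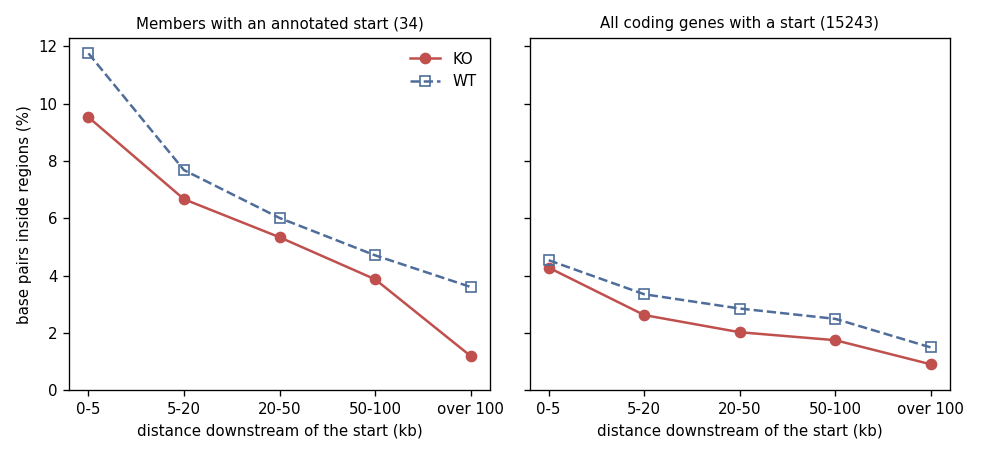
Percentage of base pairs inside regions by distance downstream of the outermost start, in KO cells (filled circles) and WT cells (open squares), for 34 members (left) and 15243 coding genes (right). The members lie above all coding genes in each class, and the KO line drops away from the WT line beyond 100 kb, to 1.19% against 3.61%.

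The share of regions found in both libraries was higher for KO regions of these genes than for KO regions of all coding genes, and nearly alike for WT regions. Of the members' 175 KO regions, 87 overlapped a WT region (49.7%, exact binomial 95% interval 42.1 to 57.4), against 41.4% in all coding genes. Of their 252 WT regions, 83 overlapped a KO region (32.9%, 27.2 to 39.1), against 30.6%. Among regions of 500 bp the share was 29.8% in KO, against 26.4% in all coding genes, and 16.9% in WT, against 16.7%. Over 500 bp and under 2 kb it was 65.9% in KO, against 54.6%, and 46.8% in WT, against 41.1%. From 2 kb up it was 8 of 9 in KO, against 96.5%, and 10 of 13 in WT, against 90.5%. Regions treated as independent here can lie in the same gene.

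Where the same site was called in both libraries, its tags could be set side by side. In 18 cases a KO and a WT region covered each other to at least 80%, in 11 with more and in 7 with fewer normalised tags in KO. The median ratio of KO to WT was 1.12, from 0.89 to 1.82, against a median of 1.07 over 1560 such pairs in all coding genes. The interval of 17 of the 18 ratios included 1, Brd2 being the exception. Intervals were wide, such as 0.40 to 2.12 for Kat2a, so those that include 1 do not show that the tags were alike. Such pairs leave out every site that was called in 1 library only.

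**Figure D5:**
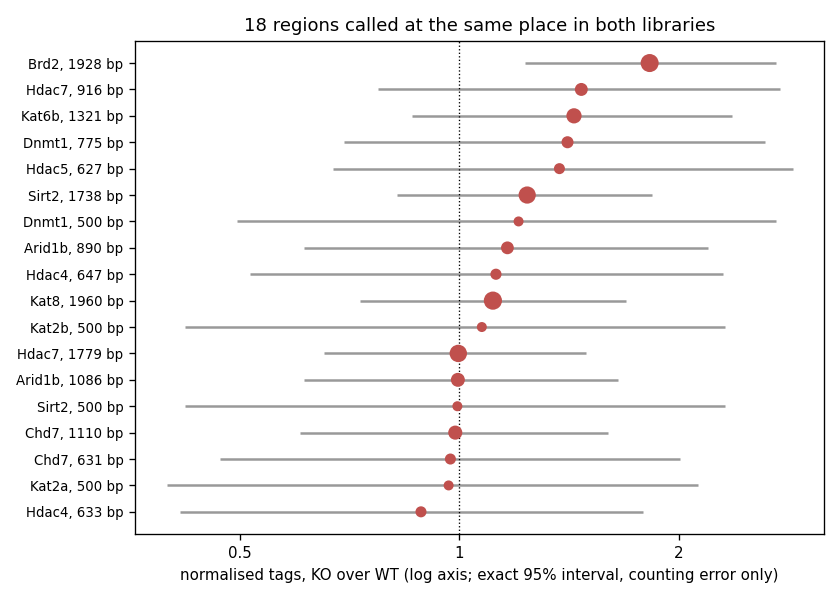
Ratio of normalised tags, KO over WT, on a log axis for the 18 matched regions, named by gene and KO region length, with exact 95% intervals for counting error and dots scaled to length. The interval of the Brd2 region, 1.23 to 2.72, lies above 1.

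Other genes of these pathways, 56 in number and not among the 41, were less marked. They held 92171 bp in KO (2.98%) and 114133 bp in WT (3.69%), a ratio of 80.8%. Of 42 with a region, 22 (52.4%) had fewer covered base pairs in KO, against 59.7% of coding genes with a region. Another 18 (42.9%) had more, against 36.7%. By the 2-fold rule 6 of 22 (27.3%) were lower, against 36.9% of coding genes, and 2 (9.09%) higher, against 14.8%. Deficits were found in Rcor1, a subunit of the CoREST complex, with 1500 bp in KO and 3666 bp in WT, and Sin3b, a Sin3 scaffold, with 500 bp and 2672 bp. The largest excesses were in Brd3, another BET reader, with 7815 bp in KO and 5543 bp in WT, Gatad2a, a NuRD subunit, with 12453 bp and 10679 bp, and Chd8, with 1635 bp and none.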

How the data were processed

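H3K36me2 was profiled in splenic Treg cells, 1 library per genotype. Per the labels' protocols, an in situ ChIP library kit and a transposase index kit were used. Build mm10 and the tools deepTools, HOMER, Picard, Bowtie2 and Trim Galore are listed, per the submitters' processing notes, with no version. Per the file headers, HOMER findPeaks (histone style) was run on each library without a control, from peaks of 500 bp stitched when close, with a Poisson threshold of 0.001. The deposited signal is the tag count per region, scaled by the authors to 10000000 tags, which removes any genome-wide change of the mark. The deposited score and the clonal fold ratio were not used.

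Covered base pairs were summed over RefSeq gene bodies of at least 2000 bp with pandas 2.3.3, scipy 1.17.1 and numpy 2.4.6 under Python 3.11.15, and the interval code was tested on simulated data. Overlap meant at least 1 bp. Starts and strands came from the RefSeq promoter table. Tags of regions crossing a gene end were split by overlap. Regions were not assigned to 1 gene where bodies overlap. Intervals are exact binomial or Poisson at 95%, and PCR tags without molecular identifiers are not independent molecules. The members, lists and rules were chosen with earlier results of these data known. Named genes were all 41 members and the 3 other pathway genes of largest difference in base pairs in each direction. Some genes that this rule or the marker lists pick are not reported here.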

Additional observations from a re-analysis of the deposited data

How the results depend on the processing

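The pooled ratio of KO to WT cover stayed below 100% under all 7 alternatives. It ran from 59.5% with regions of 1 kb and over to 85.83% with WT regions of 500 bp held to the KO threshold (13.9 tags) and 90.44% with KO cover divided by the genome-wide covered-length ratio. The KO threshold was put on WT regions of 500 bp only, and KO regions were all kept. Of these, 1 of 500 bp in Hdac9 had 7.10 normalised tags, below the level of 8.11, so the setting favoured KO. Under this WT-only threshold the counts of lower and higher members were 17 and 18. With regions of 1 kb and over they were 14 and 7. The 2-fold lower members numbered 6 after division by the covered-length ratio and 5 with a minimum of 2000 bp. The 2-fold higher members numbered 1 with regions of 1 kb and over, with regions above the median tags and with a 2000 bp minimum. They numbered 4 under the WT-only threshold. The share of KO regions with a base in WT regions was 62.9% with regions of 1 kb and over. It was 40.6% under the WT-only threshold and 38.9% with 50% overlap. The share of WT regions in KO was 40.0%, 42.2% and 27.0% in the same settings, and 39.7% with regions above the median tags. With flanks of 5 kb the difference at Tet2 turned to -0.55 and that at Kat2a to 0.71 percentage points. Of 37 members with a difference, 11 kept its direction under all 7 alternatives. Lower in KO were Arid1a, Arid1b, Chd7, Hdac4, Hdac5, Hdac9, Hdac10 and Tet1, and higher Chd4, Hdac7 and Kat8. In 14 others it turned under at least 1, among them Sirt6, Dnmt3a, Brd2 and Sirt2. Without replicates or tags outside regions, the amount of mark below the threshold is unknown. No paired analysis was possible because each genotype has 1 library.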
